A study of Homo sapiens with 6 samples.

Results

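The receptors for the colony-stimulating factors and interleukin 3 are encoded by 5 genes, CSF1R, CSF3R, CSF2RA, IL3RA and CSF2RB, and DEK peaks at all 5 are described here against the 20144 protein-coding genes on chromosomes 1 to 22, X and Y. The genes were chosen by name and not by a threshold on their binding, but with earlier results of these data known. Every peak that touched a gene body or the 10 kb on either side of it was taken as a peak at that gene. In this study chromatin of the human myeloid cell line U937, an established line grown in suspension, was crosslinked with formaldehyde, sheared by sonication and precipitated with an antibody against DEK or against H3K4me3, a histone mark found at active promoters. No treatment is named for any sample, and each antibody had 2 precipitations, called replicate 1 and replicate 2. The study describes those with the DEK antibody as independent. Non-precipitated chromatin of the same line, the negative control of the study, was not analysed here. With 1 peak list per precipitation no spread between replicates could be estimated, so that all comparisons below are descriptions and carry no p-value.

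CSF1R is a receptor tyrosine kinase that binds CSF1 and interleukin 34 and keeps monocytes and macrophages alive. CSF3R binds G-CSF as a pair of identical chains and drives the formation of neutrophils. CSF2RA and IL3RA are the ligand-binding alpha chains for GM-CSF and interleukin 3, and each signals through a beta chain encoded by CSF2RB, which it shares with the interleukin 5 receptor. The cytokine receptors of this group have no kinase of their own and rely on JAK kinases and STAT proteins, while CSF1R phosphorylates itself on binding its ligand. DEK, the precipitated protein, is an abundant chromatin protein that binds DNA and histones.

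The deposited lists give for each DEK peak a position on hg19, the number of tags (aligned reads) within it, a fold enrichment over the local background and a score, which is −log10 of the peak caller's p-value multiplied by 10. Replicate 1 had 15017 peaks with a median of 47 tags and replicate 2 had 152779 peaks, 10.2 times as many, with a median of 20 tags. Every replicate 1 peak had a false discovery rate of 100%, while the rate lay between 0.74% and 16.67% in replicate 2. The methods set a lower limit on the reads per sample, but the depth of each library is not given, and the tags in peaks (988363 and 4172422) depend on the length of each list. A shared interval is the overlap, of at least 1 bp, of a replicate 1 peak with a replicate 2 peak. The whole lists gave 4453 of them, from 27.4% of the replicate 1 peaks and 2.9% of the replicate 2 peaks. The H3K4me3 lists held 47523 and 29335 peaks, as positions only.

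DEK peaks of both replicates met at 2 of the 5 receptor genes. CSF1R had 2 shared intervals in an intron and IL3RA had 1 shared interval at its start, while CSF3R, CSF2RA and CSF2RB had none. A shared interval lay in the same kind of window at 15.7% of all protein-coding genes (95% Wilson interval 15.2% to 16.2%, counting error only), and at 14.7% of the 6565 genes whose windows were as long as those of the 5 receptors. With 5 genes, 2 is too few to be read as a share above or below these values. A replicate 1 peak was present at 3 of the 5 genes, against 32.6% of protein-coding genes, and a replicate 2 peak at 5 of 5, against 91.0%. Replicate 2 thus placed a peak near almost any gene, and the number, position and size of the peaks say more about a receptor gene than the presence of one.

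**Figure D1:**
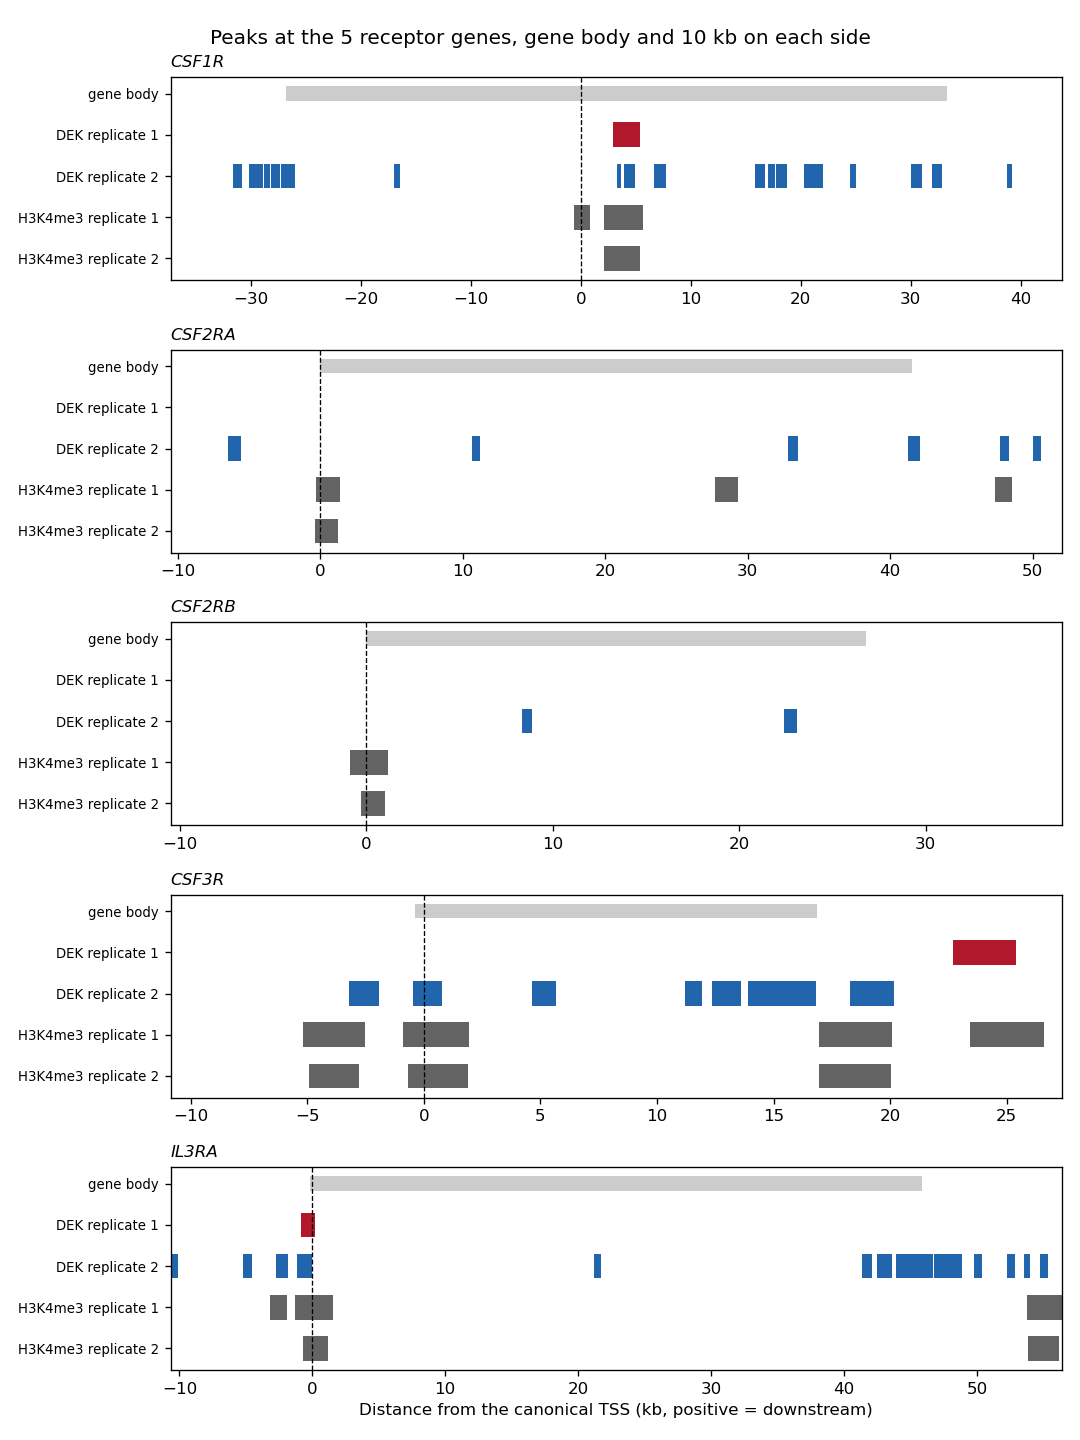
Peaks at the 5 receptor genes by distance from the canonical transcription start site (x axis, kb, positive values downstream); rows show the gene body (grey bar), DEK peaks of replicate 1 (red) and replicate 2 (blue) and H3K4me3 peaks of each replicate (dark grey). Red and blue bars overlap at CSF1R, downstream of the start, and at IL3RA, at the start, and at none of the other genes; H3K4me3 lies over the canonical start of every gene in replicate 1 and of all but CSF1R in replicate 2.

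CSF1R lies on the minus strand of chromosome 5 (149432854 to 149492935) and has 7 annotated start sites, of which the canonical one is at 149466117 and the farthest upstream at 149492935. The strongest replicate 1 peak among the receptor genes was found in its first intron, at 149460708 to 149463204. This peak was 2497 bp wide and held 303 tags, scored 402.71 and was enriched 8.51-fold. Its tag number was above that of 99.1% of the replicate 1 list and its score above that of 98.8%. Its false discovery rate was 100%, as for every replicate 1 peak. In replicate 2 the same stretch held a pair of smaller peaks, of 51 tags (score 125.35, 4.35-fold) and of 17 tags (score 50.96, 3.33-fold). Both lay entirely within the replicate 1 peak, so that the 2 shared intervals of CSF1R are parts of a single replicate 1 peak and not separate events in that list.

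The first shared interval, 149461203 to 149462195, was 993 bp wide, and the summits of the replicates were 77 bp apart, compared with a median of 152 bp (interquartile range 50 to 645.5) over all shared intervals. The lower of its scores exceeded that of 93.6% of shared intervals. Its middle was 4418 bp downstream of the canonical start. The second, 149462451 to 149462872, was 422 bp wide, its summits were 1128 bp apart, and its lower score exceeded that of only 4.96% of shared intervals. An H3K4me3 peak covered both intervals in each H3K4me3 replicate. CSF1R is known to carry a conserved regulatory element in an intron near its macrophage promoter, and whether the intervals coincide with that element was not tested.

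The sequences at the middle of these intervals are shown because they are the stretches of CSF1R that both precipitations recovered; they are 300 bp of GRCh37, read on the minus strand, the strand of the gene. The first is chr5:149461550-149461849 and the second chr5:149462512-149462811. Capitals mark matches on either strand to plain strings like the sites of transcription factors, namely GAGGAA (PU.1-like), TGTGGT (RUNX-like), CCCCACCC (SP1-like), CACGTG (USF1-like) and TTGCNNAA (C/EBP-like).
CSF1R first interval: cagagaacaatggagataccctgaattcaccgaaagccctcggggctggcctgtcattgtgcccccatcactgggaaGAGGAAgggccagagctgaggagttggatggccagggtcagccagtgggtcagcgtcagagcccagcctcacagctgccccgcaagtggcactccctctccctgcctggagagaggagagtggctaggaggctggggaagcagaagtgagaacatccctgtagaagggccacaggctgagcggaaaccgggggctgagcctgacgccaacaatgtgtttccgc
CSF1R second interval: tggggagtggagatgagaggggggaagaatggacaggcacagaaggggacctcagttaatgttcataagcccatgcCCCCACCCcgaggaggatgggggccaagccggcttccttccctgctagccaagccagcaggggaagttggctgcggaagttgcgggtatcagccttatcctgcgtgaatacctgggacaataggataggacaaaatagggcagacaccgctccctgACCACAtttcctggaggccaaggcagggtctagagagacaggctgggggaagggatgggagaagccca
The first window held GAGGAA at bases 78 to 83, a string present in 21.2% of the 4434 windows of the same length, at the shared intervals of chromosomes 1 to 22, X and Y except 1 in the masked part of chromosome Y. The second held CCCCACCC at bases 77 to 84, present in 4.96% of those windows, and the reverse complement of TGTGGT at bases 233 to 238, present in 22.1%. CACGTG and TTGCNNAA, present in 5.64% and 9.18% of the windows, had no match in either. A match of letters is a description and not a binding site. The strings for PU.1 and RUNX differ from the motifs that the study reports, which were not searched here. An unmarked stretch can therefore still match one of those motifs. The GC content was 61.3% and 58.7%, above that of 85.1% and 77.1% of the windows, whose median was 53.7%. Every 31-base word of both windows occurred once in the genome.

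The start of CSF1R itself looked different from its first intron. No DEK peak of either replicate lay at the canonical start, the nearest being the intronic peaks, whose edges were 2913 bp away in replicate 1 and 3245 bp in replicate 2. H3K4me3 covered the canonical start in replicate 1 only (149465256 to 149466731), whereas the intronic H3K4me3 peak was present in both lists. The remaining 15 replicate 2 peaks at CSF1R held 14 to 63 tags and none overlapped a replicate 1 peak. The largest, at 149492109 to 149493375, had 63 tags and a score of 271.13, above that of 98.0% of the replicate 2 list. Its middle was 193 bp downstream of the farthest upstream start, and no H3K4me3 peak of either list met it. A run of 4 further peaks of 17 to 32 tags followed in the neighbouring PDGFRB, the gene of a platelet-derived growth factor receptor, and 1 peak of 14 tags lay in HMGXB3, a gene of the HMG-box family. Within the rest of the gene body the peak of most tags held 58, at 149444114 to 149445827.

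CSF3R is on the minus strand of chromosome 1 (36931644 to 36948879), with 12 annotated start sites and the canonical one at 36948514. It was the receptor gene with a replicate 2 peak directly over the canonical start. The peak at 36947721 to 36948965 held 63 tags, scored 164.59 and was enriched 3.80-fold, and its middle was 171 bp downstream of the start. It lay within the H3K4me3 peaks of both lists. Its score was above that of 91.9% of the replicate 2 list, but its fold enrichment was above that of only 25.2%. Replicate 1 had no peak there, and the edge of its nearest peak was 22713 bp away.

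Replicate 1 had 1 peak in the window of CSF3R, 36923124 to 36925801, with 169 tags, a score of 107.31 and a width of 2678 bp. It lay in the body of the adjacent MRPS15, which encodes a protein of the small mitochondrial ribosomal subunit, and no replicate 2 peak overlapped it. The replicate 2 peak of most tags at any receptor gene was in CSF3R as well. It stretched over 2876 bp from 36931715 to 36934590, held 109 tags at a score of 155.72, and had its middle in intron 15. Its fold enrichment was 3.10, above that of only 7.69% of the list, so that its tags were spread over a wide and modestly enriched stretch. The other 5 replicate 2 peaks at CSF3R held 25 to 82 tags, the largest of them in MRPS15 (36928334 to 36930230). All 7 replicate 2 peaks at this gene were above the list median of 20 tags. Their fold enrichments of 2.09 to 3.80, in contrast, were all below the list median of 4.58. Only the peak over the start and the one of 109 tags scored above the list median of 78.28.

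IL3RA lies in the pseudoautosomal region that chromosomes X and Y share, on the plus strand (chromosome X 1455509 to 1501582), with the canonical start at 1455678. Of the 5 receptors it was the one with a shared interval within 1 kb of a start site, a position found at 4.39% of protein-coding genes. The interval covered 1454811 to 1455654 (844 bp), and its middle was 277 bp upstream of the outermost start and 446 bp upstream of the canonical one. The replicate 1 peak held 47 tags, which equals the median of its list, and scored 53.9 (4.72-fold) at a false discovery rate of 100%. The replicate 2 peak held 33 tags and was enriched 7.06-fold, and its score of 204.73 was above that of 95.6% of its list. The summits were 57 bp apart, at 1455287 and 1455230, and H3K4me3 peaks of both lists met the interval. The overlap took up 81.2% of the replicate 1 peak and 76.0% of the replicate 2 peak. The lower of its scores, that of replicate 1, exceeded only 19.6% of shared intervals.

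The highest score at any receptor gene was found at the other end of IL3RA. The replicate 2 peak at 1499570 to 1502396 held 106 tags over 2827 bp, enriched 7.07-fold, and its score of 604.76 was above that of 99.7% of the list. Its middle fell in intron 11 and it ran past the end of the gene. Peaks of 35 tags (score 227.99) and 65 tags (score 314.69) flanked it on either side, and 1 more, of 17 tags, lay farther into the gene. Replicate 1 had no peak in this stretch, and no H3K4me3 peak of either list met these 4 peaks. The remaining 8 replicate 2 peaks at IL3RA held 12 to 22 tags, and 4 of them were in SLC25A6, which encodes a mitochondrial ADP/ATP carrier.

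Part of the sequence under the IL3RA peaks is repeated in the genome, apart from the copy of the region on chromosome Y. That copy is masked in the sequence used and was not counted, so that a word found once can still have a copy there. Of the 31-base words, 30.3% in the replicate 1 peak at the start, 41.4% in the replicate 2 peak at the start and 32.3% in the peak of highest score occurred elsewhere. Reads from such words can align to several places, and their part in these peaks was not tested.

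CSF2RA lies in the same pseudoautosomal region (chromosome X 1387693 to 1429274, plus strand, 13 start sites, canonical start 1387707). Its start carried H3K4me3 in both lists, at 1387436 to 1389124 and 1387324 to 1388965. DEK peaks held few tags and lay away from the start. Replicate 1 had none in the window, and the edge of its nearest peak, of 51 tags, was 18538 bp from the canonical start. The 6 replicate 2 peaks held 12 to 19 tags, each below the list median of 20, and none was within 1 kb of a start site. Their fold enrichments of 4.69 to 7.26, in contrast, were all above the list median of 4.58. The peak of 19 tags, at 1381238 to 1382107, was enriched 7.26-fold, scored 97.3 and was also the nearest to the canonical start, with its middle 6035 bp upstream of it. Between 27.4% and 67.0% of the 31-base words in these 6 peaks occurred elsewhere in the genome, with the masked copy on chromosome Y not counted.

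**Figure D2:**
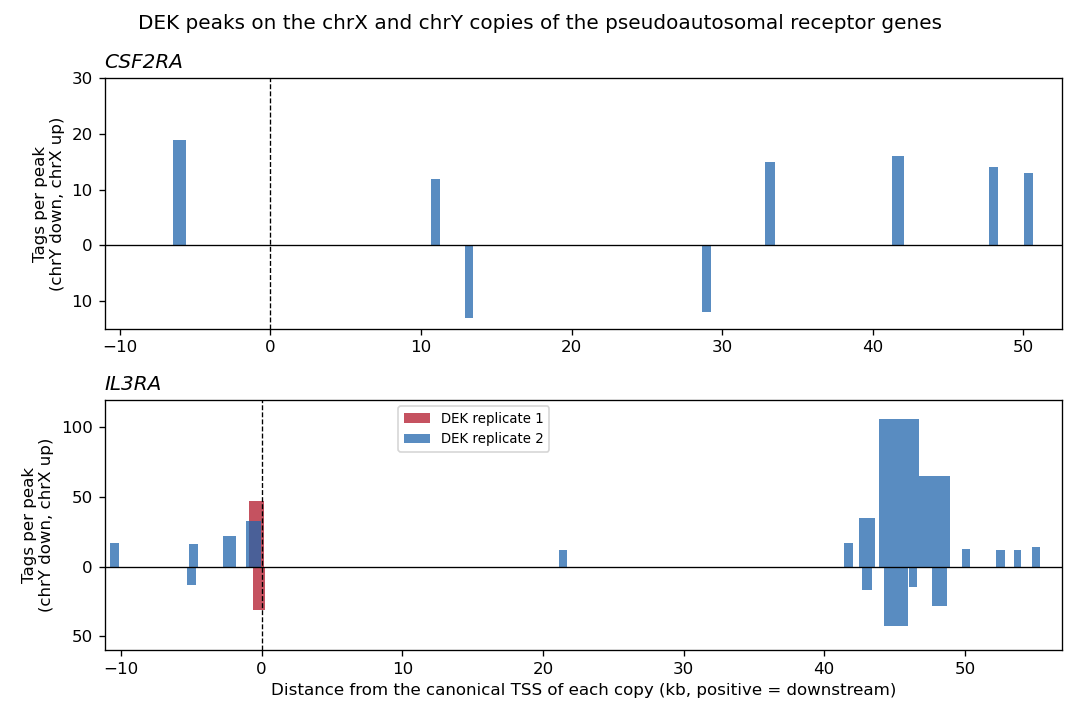
DEK peaks on the chrX copy (bars upward) and the chrY copy (bars downward) of CSF2RA and IL3RA, by distance from the canonical start site of each copy (x axis, kb); bar height is the number of tags in the peak and bar width the width of the peak, in red for replicate 1 and blue for replicate 2. At IL3RA the downward bars lie opposite upward ones, while the 2 downward bars at CSF2RA have none opposite.

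For both genes hg19 carries the same region on chromosome Y, and the lists hold peaks on both copies. Reads from the copies cannot be told apart, so that a tag of either gene may be counted on either copy. IL3RA had 13 replicate 2 peaks with 374 tags on chromosome X and 5 with 116 tags on chromosome Y. All 5 peaks on chromosome Y lay opposite a peak on chromosome X, among them the peaks near the end of the gene, where 43 and 15 tags on chromosome Y stood opposite the 106 on chromosome X. At the start, replicate 1 had 47 tags on chromosome X and 31 on chromosome Y (1405056 to 1405935), whereas replicate 2 had 33 on chromosome X and no peak on chromosome Y. No shared interval was therefore found on the chromosome Y copy. CSF2RA had 89 tags in 6 replicate 2 peaks on chromosome X and 25 in 2 peaks on chromosome Y, and neither of those 2 lay opposite a peak on chromosome X. Even with both copies added, CSF2RA had 114 tags in replicate 2 peaks and IL3RA 490.

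CSF2RB, the common beta chain, is on the plus strand of chromosome 22 (37309670 to 37336481), with 3 start sites and the canonical one at 37309670. It had the fewest DEK peaks of the 5 genes. Replicate 1 had no peak in the window, and the edge of its nearest was 328477 bp from the canonical start. Replicate 2 had a peak of 15 tags at 37318034 to 37318582 (score 91.92, 5.56-fold) and one of 17 tags at 37332098 to 37332777 (score 55.71, 2.86-fold). The first had its middle in exon 2 of the canonical transcript, 132 bp downstream of an alternative start, and 8638 bp from the canonical start. The canonical start carried H3K4me3 in both lists (37308775 to 37310824 and 37309364 to 37310672) and no DEK peak. The second peak lay in intron 12.

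**Figure D3:**
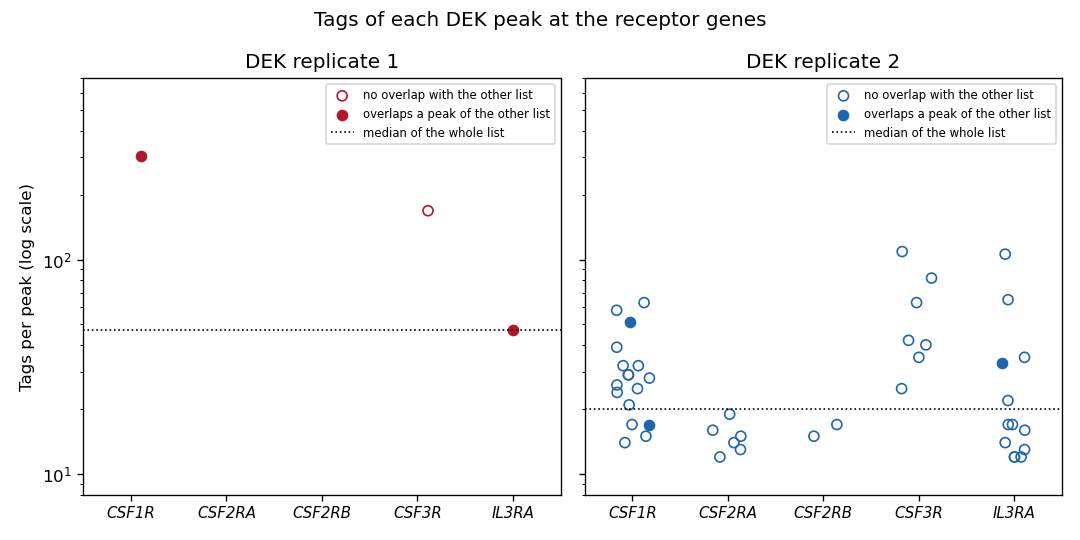
Tags in each DEK peak at the receptor genes (y axis, log scale) in replicate 1 (left) and replicate 2 (right); filled points overlap a peak of the other replicate, open points do not, and the dotted line is the median of the whole list. The CSF1R peak of replicate 1 stands highest at 303 tags, and every replicate 2 peak at CSF2RA and CSF2RB is below the line at 20. IL3RA and CSF2RA are shown on chromosome X only.

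The 5 genes together had 3 peaks in replicate 1 and 45 in replicate 2. The replicate 2 peaks held 12 to 109 tags with a median of 24, against 20 for the list, and were 422 to 2876 bp wide with a median of 823 bp, against 697 bp. Their median score was 74.08 and their median fold enrichment 4.44, against 78.28 and 4.58. In size and strength the peaks at the receptor genes were thus close to those of the list. They differed among the genes, however, with median tags of 42 at CSF3R, 28 at CSF1R, 17 at IL3RA, 16 at CSF2RB and 14.5 at CSF2RA. The order of the last 3 rests on differences of less than 3 tags. IL3RA and CSF2RA are counted here on chromosome X only, while their replicate 2 peaks on chromosome Y held 116 and 25 tags. Their medians are therefore not directly comparable with those of the genes that have a single copy.

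Because longer genes hold more peaks, replicate 2 peaks were also counted per 100 kb of window. CSF1R had 21.2, IL3RA 19.7 and CSF3R 18.8, higher than 84.2%, 81.6% and 79.9% of protein-coding genes. The middle lay in the gene body for 12 of 17 peaks at CSF1R, 4 of 13 at IL3RA and 5 of 7 at CSF3R. CSF2RA had 9.74, close to the median of 9.21 over those genes (interquartile range 4.01 to 16.6), and CSF2RB had 4.27, higher than 26.7% of them. For IL3RA the value depends on the copy, since its chromosome Y copy had 7.57, higher than 42.7% of protein-coding genes, and the chromosome Y copy of CSF2RA had 3.25. No spread over replicates is known for these densities, and the first 3 differ by less than 3 peaks per 100 kb.

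**Figure D4:**
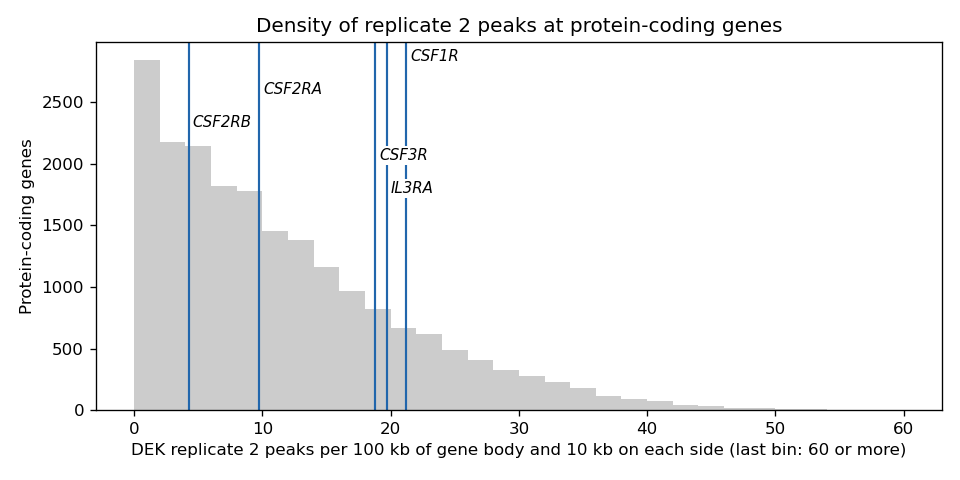
Replicate 2 DEK peaks per 100 kb of gene body and 10 kb on each side (x axis) for protein-coding genes (grey histogram, y axis in genes), with the 5 receptor genes, CSF2RA and IL3RA on chromosome X, as vertical lines. CSF3R, IL3RA and CSF1R lie between 18.8 and 21.2, to the right of the median of 9.21, and CSF2RB lies to its left at 4.27.

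A replicate 2 peak had its middle within 1 kb of some start site at 4 of the 5 receptors, all but CSF2RA, against 56.9% of protein-coding genes, but at CSF1R and CSF2RB these were alternative starts. H3K4me3 covered a start in both lists at 4 of the 5, all but CSF1R, against 55.2%. CSF2RA and CSF2RB therefore had H3K4me3 over the canonical start in both lists with no DEK peak of either replicate there. At CSF2RA this held for the copies on chromosomes X and Y. Its reads may be divided between them, and whether this kept a weak peak from being called was not tested. Of the DEK peaks at the receptors, 3 of 3 met an H3K4me3 peak of either list in replicate 1, against 51.3% of that list, and 10 of 45 in replicate 2, against 11.0%. The 10 comprised 4 at IL3RA, 3 at CSF3R, 2 at CSF1R and 1 at CSF2RA. Some of these lay in neighbouring genes, at 1509192 to 1509697 and 1510440 to 1511030 in SLC25A6 and at 36928334 to 36930230 in MRPS15. The replicate 1 peak of CSF3R also lay in MRPS15. The shares of 51.3% and 11.0% are over all peaks of each list, wherever they lie. All 3 shared intervals met H3K4me3, as did 50.3% of all shared intervals. With the 2 intervals of CSF1R inside 1 peak, these counts rest on very few positions.

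Around the receptors stand their ligands, related receptors, signal transducers and attenuators, of which 36 genes were looked at in the same windows. A shared interval was found at 6 of the 36, beside 15.7% of protein-coding genes. The 6 were 1 of 6 ligands (IL3), 0 of 8 other receptors of the families, 3 of 14 transducers (JAK1, GRB2 and LYN) and 2 of 8 attenuators (PTPN6 and INPP5D), and apart from PTPN6 these genes are named because their values were seen. A replicate 1 peak was present at 15 of the 36 (32.6% of protein-coding genes) and a replicate 2 peak at 36 of 36 (91.0% of protein-coding genes). H3K4me3 over a start in both lists was present at all 14 transducers and all 8 attenuators, and at 1 of 6 ligands and 3 of 8 other receptors, beside 55.2% of protein-coding genes. PTPN6, the gene of a phosphatase that dampens signals from these receptors, was the one with a shared interval within 1 kb of a start. It lay at chromosome 12 7066978 to 7069005, inside the gene body (7055631 to 7070479), and came from peaks of 155 and 143 tags (scores 162.39 and 300.39). Its middle was 494 bp upstream of an alternative start within the gene, not of the outermost one. A second interval at PTPN6, 7062267 to 7064093, came from peaks of 158 and 109 tags. The tags in both replicates were thus higher at PTPN6 than at the shared interval of IL3RA, where only tags on chromosome X are counted.

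IL3, the ligand of IL3RA, had its shared interval near the edge of the window, at chromosome 5 131386157 to 131386640, 9950 bp upstream of the nearest start, with 49 and 27 tags. Among the other receptors, PDGFRB, whose body begins next to the farthest start of CSF1R, had 11 replicate 2 peaks and none in replicate 1. CRLF2, another pseudoautosomal receptor, had 1 peak in each replicate without overlap. Of 8 genes that mark myeloid cells, 2 had a shared interval within 1 kb of a start, beside 4.39% of protein-coding genes. The 2 were S100A9 and CD68. The study itself reports enrichment at S100A9 by PCR on the precipitated DNA, so that the list held a gene already reported as bound. The 2 of 8 are therefore not read as a result about myeloid genes. H3K4me3 covered a start in both lists at 5 of the 8, beside 55.2% of protein-coding genes. Of 4 genes that mark other lineages, 0 had such an interval and 1 had H3K4me3 over a start in both lists. These marks describe chromatin and not expression, so that the labelled cell type was not tested by them.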

How the data were processed

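Reads of DEK and H3K4me3 precipitations were aligned by the authors to hg19 with Bowtie 2 and peaks were called with MACS 1.4.1 in each precipitation, at default parameters. The authors name non-precipitated chromatin as their negative control. The DEK lists deposited by the authors give tag counts, which were not normalized, a score (−log10 of the p-value, multiplied by 10), a fold enrichment, which is a ratio over local background, and a false discovery rate in percent. The deposited H3K4me3 lists give positions, without tags.

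Positions were compared with Python 3.11.15, NumPy 2.4.6, pandas 2.3.3 and Numba 0.67.0, Wilson intervals were computed with SciPy 1.17.1 and plots drawn with Matplotlib 3.10.9. Genes and start sites were taken from GENCODE release 44 on GRCh37, with CSF2RA and IL3RA on chromosome X. Sequence came from GRCh37, in which the pseudoautosomal part of chromosome Y is masked. The sequence at the IL3RA peaks is not reported here. The overlap functions were tested on simulated lists (9 of 9 checks passed), and bedtools 2.31.1 gave the same 4453 shared intervals. Distances run from the middle of a peak to the start, and those to the nearest peak run from its edge. Percentiles are the share of the list, or of genes, below the value.

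The members and lists were chosen with earlier results of these data known. Genes named were the 5 receptors, neighbours that hold a named peak, and pathway genes with a shared interval within 1 kb of a start. IL3, JAK1, GRB2, LYN, INPP5D, CRLF2, S100A9 and CD68 fall outside this rule and were named after their values were seen. Alternatives were a larger overlap, a higher score, lists of equal length, other windows, other start sites, chromosome Y copies, other H3K4me3 criteria and each replicate alone. No paired analysis was possible because no result came from a test. The methods state a minimum number of reads per sample, and the depth of each library is known here only through the tags in peaks.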

Additional observations from a re-analysis of the deposited data

How the results depend on the processing

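The number of shared intervals at the receptors was 3, and 1 remained when the overlap had to cover 50% of each peak, when both scores had to reach 100, or when replicate 2 was reduced to the 15017 peaks of highest score. The number of receptors with a shared interval was 2 and became 1 under each of these: IL3RA with the larger overlap and with equal lists, CSF1R with the higher score. It was also 1 (CSF1R) on the chromosome Y copies, and 1 (CSF1R) without peaks in which over 30% of the 31-base words occur elsewhere, an alternative chosen after seeing the data. That share of words leaves out the masked copy on chromosome Y. No receptor thus kept a shared interval under every alternative. With windows of 50 kb it was 3, since the interval of IL3RA then fell in the window of CSF2RA. With a single replicate in place of the overlap, the intervals numbered 3 (replicate 1, without replicate 2) to 45 (replicate 2, without replicate 1), the receptors with one 3 to 5, and those with one within 1 kb of a start 1 to 4. The count of 13 DEK peaks that met H3K4me3 was 10 to 13 under its alternatives. The share of protein-coding genes with a shared interval, 15.7%, ranged from 2.66% (score of 100) to 28.1% (50 kb) where both replicates were required. The depth of each library limits which weak peaks could be called, and beyond the minimum that the methods set it is not given.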
